A study of Mus musculus with 32 samples.

Results

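The brain artery libraries of 12-month-old mice fell into a choroid-rich and a choroid-poor set by a single transcript, Ttr. Ttr encodes transthyretin, the thyroid hormone and retinol carrier that choroid plexus epithelium secretes into the cerebrospinal fluid. The sets were chosen by the measured Ttr level: a library was high-Ttr at 1000 or more Ttr counts per 1000000 counts of that library (CPM) and low-Ttr below that. Of the 16 libraries, 6 were high and 10 were low, out of 32 libraries in the whole series.

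The 16 mice were 8 TgNotch3R169C and 8 WT (non-Tg) animals, all 12 months old, untreated and on a C57BL/6 background. TgNotch3R169C mice model CADASIL, the inherited small vessel disease caused by NOTCH3 mutations, and are labelled CADASIL in the plots. They carry an artificial chromosome that overexpresses rat Notch3 with the Arg169Cys change while the mouse gene is still present, so they are a single transgenic line and not a knockin. The other 16 libraries came from 3-month-old Notch3-/- and Notch3+/+ mice, 8 of each. Arteries were dissected from the brain surface in cold PBS, and each mouse gave 1 stranded poly(A) library. Total counts ranged from 24581846 to 48829159 in the 6 high and from 20289487 to 40746284 in the 10 low libraries.

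Choroid plexus hangs in the brain ventricles as a fringe of fenestrated capillaries and stroma under a sheet of epithelium. The epithelium makes cerebrospinal fluid by moving sodium, chloride, bicarbonate, and water from blood to ventricle, closes the blood-cerebrospinal fluid barrier with tight junctions, and secretes carrier proteins. It descends from the roof plate and keeps tufts of cilia and part of the transcription program of multiciliated cells. The wall of a surface artery is built instead of smooth muscle, endothelium, pericytes, and adventitial fibroblasts.

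Ttr chose the libraries, so its values in the 2 sets are given as a description with no test. In the 6 high libraries Ttr reached 12823 CPM in TgNotch3R169C replicate 5 and 9064 CPM in TgNotch3R169C replicate 8. Among WT mice it stood at 7734, 22127, 12491, and 11783 CPM in replicates 2, 4, 5, and 6. The 10 low libraries ranged from 15.4 to 334 CPM, with a median of 66.6 CPM. The libraries nearest to the threshold were WT replicate 2 above it, at 7734 CPM, and WT replicate 3 below it, at 334 CPM, so that thresholds of 500 and 2000 CPM gave the same division. Together, Ttr and the 50 genes of the 5 choroid epithelium lists took 2.16% to 4.89% of all counts in the high libraries and 0.729% to 0.794% in the low libraries.

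The high set held 2 of 8 TgNotch3R169C and 4 of 8 WT libraries; the rule did not use genotype. On the log2(CPM + 1) scale Ttr averaged 7.60 in TgNotch3R169C and 10.09 in WT mice. The genotype difference of −2.49 did not pass a 2-sided exact permutation test over all 12870 divisions of the 16 libraries (p = 0.188). The labels do not give the sex of the mice. Xist, the transcript of the inactive X chromosome, exceeded 100 CPM in 4 of 6 high and in 4 of 10 low libraries, and its part in the results was not tested beyond the fit with its level as a covariate.

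The levels of every gene other than Ttr were then compared between the sets by edgeR's quasi-likelihood test with genotype as a covariate, with p-values adjusted by Benjamini-Hochberg over all 17730 genes tested. Levels are CPM scaled by TMM factors, log2 fold changes are high minus low and given ± SE, and DEGs are genes with an adjusted p below 0.05. Since these are bulk tissue samples, more choroid cells and more RNA per choroid cell cannot be told apart. Genes made by the same cells as Ttr are not independent of the rule that divided the libraries, and the comparison describes which other genes differed along with it. There were 1132 DEGs: 1091 (6.15% of the genes tested) were higher and 41 (0.231%) were lower in the high libraries. The medians of the 2 directions were 0.59 and −0.29 on the log2 scale, and the median of all genes was −0.02. Of the higher DEGs, 65 differed by at least 8-fold and 355 by at least 2-fold, while 538 differed by less than 1.5-fold. The 6 high and 10 low libraries did not overlap for 570 of the higher DEGs (3.21% of the genes tested) and for 0 of the lower DEGs.

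All 7 other choroid markers named for the label were DEGs, and for each of them the lowest high library lay above the highest low library. They were Enpp2, Folr1, Otx2, Clic6, Kl, Aqp1, and Kcnj13. These markers were chosen with earlier results of these data known, and choroid epithelium makes them as it makes Ttr. Their separation is therefore a description and not a test of the label. The low libraries were not free of them. Kcnj13, Kl, and Enpp2 stayed at medians of 94.8, 132, and 326 CPM there, whereas Folr1 and Otx2 lay at medians of 1.25 and 2.79 CPM.

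**Figure D1:**
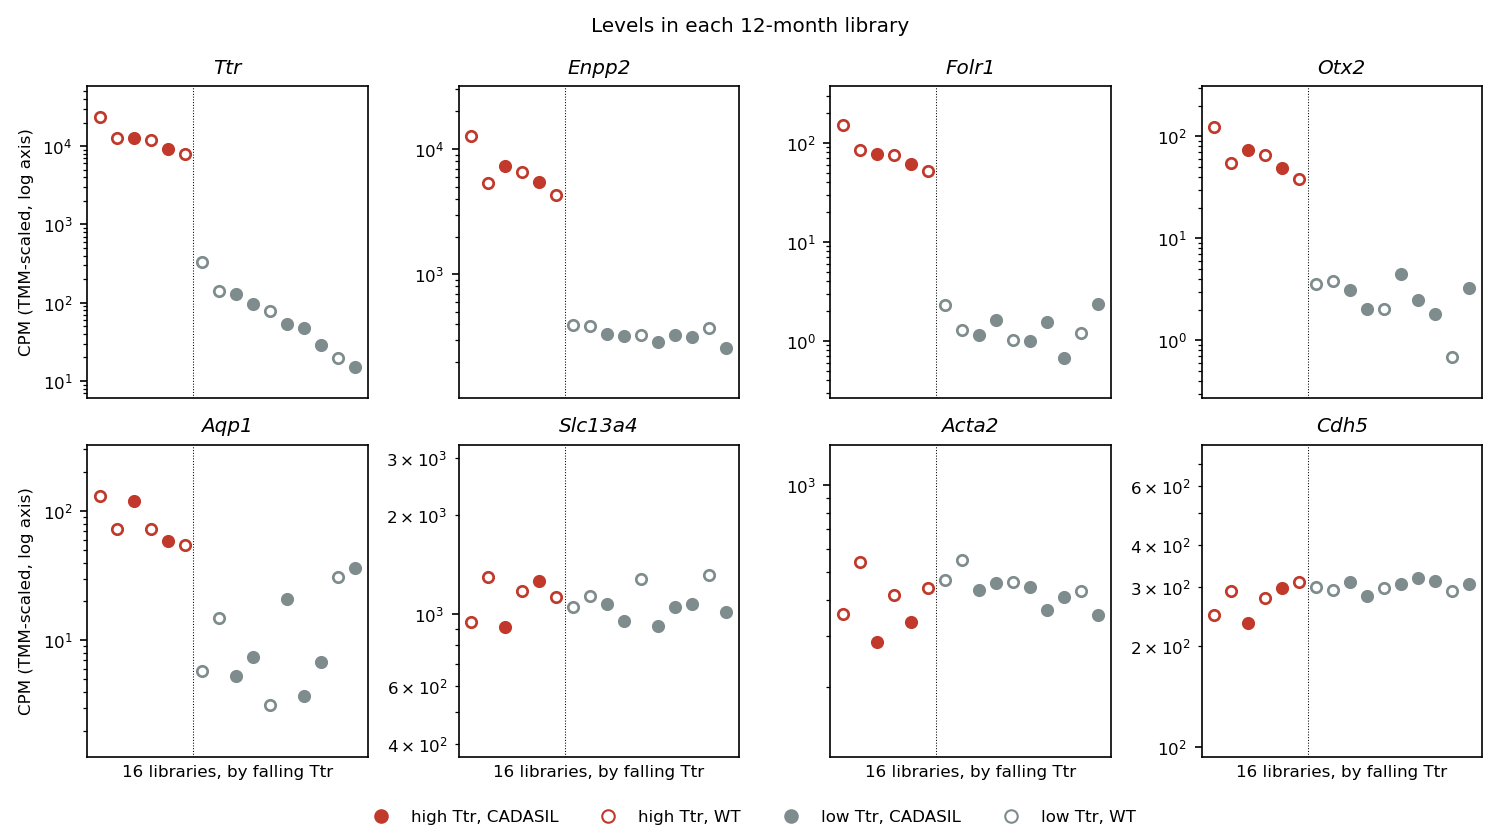
Levels of 8 genes in each 12-month library, as TMM-scaled CPM on log axes that differ between panels, with libraries ordered by falling Ttr and a dotted line between the 6 high and 10 low libraries. Enpp2, Folr1, Otx2, and Aqp1 separate at the line, while Slc13a4, Acta2, and Cdh5 overlap.

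Genes of fluid secretion were among those with the largest differences. Mfrp, a membrane frizzled-related protein that was not on any list, differed most. It ranged from 78.5 to 258 CPM (median 132) in the high libraries and from 0.194 to 2.54 CPM (median 0.793) in the low libraries. Its log2 fold change was 7.08 ± 0.35 (adjusted p = 2.51e-09). Mfrp shares its exons with C1qtnf5 on the same strand in the GENCODE vM21 annotation, and C1qtnf5 was listed at 0 in all 32 libraries, so reads of that gene cannot be told from reads of Mfrp.

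Of the 16 genes of transport and fluid secretion, 13 were higher DEGs, none was lower, and the median log2 fold change was 2.20. Tmem72, a membrane protein, ranged from 104 to 319 CPM (median 169) in the high and from 0.116 to 3.64 CPM (median 1.05) in the low libraries, with a log2 fold change of 7.03 ± 0.38 (adjusted p = 7.81e-09). Kcne2, a potassium channel subunit, ranged from 69.9 to 235 CPM in the high and from 0.243 to 3.07 CPM in the low libraries (log2 fold change 6.77 ± 0.40). Slc4a5, a sodium bicarbonate cotransporter, ranged from 82.7 to 238 CPM in the high and from 0.875 to 3.24 CPM in the low libraries (log2 fold change 6.45 ± 0.25). All 4 genes stayed below 4 CPM in every low library and separated the sets completely. Slc16a8, a lactate transporter, had a log2 fold change of 6.26 ± 0.40 from a level of 15.2 ± 4.26 CPM (SD, n = 6) in the high libraries. Car12, a carbonic anhydrase of the plasma membrane, Clic6, an intracellular chloride channel protein, and Atp2b3, a calcium pump, followed with log2 fold changes of 4.79, 4.48, and 3.48. The 10 largest increases with sets that did not overlap also held 2 genes on no list besides Mfrp. Oca2, the pink-eyed dilution protein of melanosomes, averaged 11.5 ± 5.69 CPM (SD, n = 6) in the high and 0.277 ± 0.19 CPM (SD, n = 10) in the low libraries, and Steap1, of a family of metalloreductases, 21.7 ± 10.6 and 0.509 ± 0.16 CPM.

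The water channel Aqp1 behaved differently in the low libraries, where it ranged from 3.16 to 36.1 CPM (median 7.15) against 55.0 to 130 CPM (median 73.1) in the high libraries. Its log2 fold change was 2.65 ± 0.50 (adjusted p = 0.00268), and the low library with the most Aqp1, TgNotch3R169C replicate 7, had the least Ttr. Transporters that were abundant in the low libraries differed less. Slc12a2, the sodium-potassium-chloride cotransporter NKCC1, rose from 249 ± 20.5 (SD, n = 10) to 376 ± 74.6 CPM (SD, n = 6), and Atp1b1, the beta subunit of the sodium pump, from 423 ± 49.7 to 625 ± 132 CPM. The adjusted p-values were 0.00063 and 0.00254. The 3 uncalled members were Slc13a4, a sulfate transporter, Slc4a10, a sodium-coupled bicarbonate transporter, and Car14, another carbonic anhydrase. Slc13a4 averaged 1120 ± 161 CPM (SD, n = 6) and 1080 ± 128 CPM (SD, n = 10) in the high and low libraries, a log2 difference of 0.00 with a 95% CI of −0.18 to 0.18.

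Of the 13 secreted and carrier proteins, 9 were higher DEGs and 4, among them Igf2, Wfikkn2, and Trf, were not called; the median was 0.82. Enpp2, the autotaxin that makes lysophosphatidic acid, ranged from 4293 to 12784 CPM (median 6011) in the high and from 258 to 396 CPM (median 326) in the low libraries. Its log2 fold change was 4.33 ± 0.19 (adjusted p = 6.72e-10), and the sets did not overlap. Sostdc1, a secreted antagonist of BMP and WNT ligands, differed by 5.34 ± 0.33 on the log2 scale. F5, coagulation factor V, differed by 3.82 ± 0.21, and Kl, the antiaging protein klotho, by 2.27 ± 0.17. At the small end, Igfbp2, a binding protein of insulin-like growth factors, differed by 0.33 ± 0.07 (adjusted p = 0.00868) with overlapping sets. Clu, the chaperone clusterin, was called at an adjusted p of 0.043 and lost the call in 11 of the 16 fits that left out 1 library. The uncalled Igf2 averaged 151 ± 16.8 and 153 ± 24.9 CPM in the high and low libraries.

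Among the 7 receptors, Folr1, Prlr, Htr2c, and Ace were higher DEGs. Folr1, the folate receptor that carries folate into cerebrospinal fluid, ranged from 51.7 to 150 CPM (median 75.6) in the high and from 0.665 to 2.36 CPM (median 1.25) in the low libraries. Its log2 fold change was 5.78 ± 0.27 (adjusted p = 1.54e-09), and the low library with the highest Folr1 was again TgNotch3R169C replicate 7. Folr1 overlaps Anapc15 on the opposite strand, and how strand was used in counting is not given in the sources used here. Prlr, the prolactin receptor, differed by 5.26 ± 0.33, and Htr2c, the serotonin receptor 2C, by 4.23 ± 0.29. Ace, the angiotensin-converting enzyme, which endothelium makes as well, differed by 0.87 ± 0.09. Lepr, Lrp2, and Cdhr3 were not called, and the latter pair stayed at or below 6.39 CPM in every 12-month library.

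Of 7 genes of junctions and keratins, 5 were higher DEGs with sets that did not overlap. Cldn2, the claudin that makes tight junctions leaky to cations, rose from 4.40 ± 0.76 (SD, n = 10) to 77.9 ± 31.5 CPM (SD, n = 6), a log2 fold change of 4.11 ± 0.20 (adjusted p = 2.51e-09). Krt18, Krt8, Cldn3, and Cldn1 followed with log2 fold changes of 3.38, 3.26, 2.23, and 1.98. The general epithelial adhesion genes Cdh1 and Epcam did not pass the test. Cdh1 stood at 251 ± 42.2 and 271 ± 17.0 CPM in the high and low libraries.

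All 7 transcription factors were higher DEGs. Otx2, a homeodomain factor required for choroid plexus development, ranged from 38.1 to 125 CPM (median 59.8) in the high and from 0.68 to 4.49 CPM (median 2.79) in the low libraries (log2 fold change 4.61 ± 0.31; adjusted p = 8.0e-08). Gmnc (geminin coiled-coil domain containing), which starts the multiciliated cell program, and Lmx1a, a roof plate factor, differed by 5.32 ± 0.39 and 4.91 ± 0.29. Foxj1, the regulator of motile cilia, differed by 2.20 ± 0.32, and its sets overlapped, with 20.6 CPM in the lowest high and 21.2 CPM in the highest low library. Msx1, Rfx3, and Rfx2 differed by 1.05, 0.61, and 0.49.

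Genes of motile cilia, which choroid epithelium shares with ependyma, differed in the same direction. Of 24 motile cilia genes, 23 were tested (Sntn was too low) and 17 were higher DEGs, with a median of 2.08 on the log2 scale. Cfap52, an axonemal protein, ranged from 5.39 to 14.5 CPM in the high and from 0.271 to 2.49 CPM in the low libraries (log2 fold change 3.44 ± 0.45; adjusted p = 8.61e-05). Tekt1, a tektin of the axoneme, ranged from 5.19 to 14.4 CPM and from 0.549 to 2.99 CPM, with a log2 fold change of 2.58 ± 0.32. Cfap65, another axonemal protein, differed by 3.14 ± 0.55 and ranged from 0.839 to 18.0 CPM among the low libraries. Hydin, Ak7, Ccdc153, Tmem212, Dnah5, and Ccdc40 were not called. Ccdc153, Tmem212, Dnah5, and Ccdc40 had negative log2 fold changes of −0.20, −0.21, −0.81, and −0.20, and their highest levels in low libraries (7.89, 2.87, 8.02, and 5.91 CPM) exceeded those of all high libraries.

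Across the 5 choroid lists together, 38 of 50 genes (76.0%) were higher DEGs, beside 6.15% of all genes, and the median log2 fold change was 1.97. Non-overlapping sets were seen for 31 of the 50, against 3.25% of all genes. The 12 uncalled members included Slc4a10, Slc13a4, Car14, Igf2, Wfikkn2, Trf, Lepr, Lrp2, Cdhr3, Cdh1, and Epcam. Of the 12, 9 averaged at least 89.0 CPM in both sets, and the other 3 (Lrp2, Cdhr3, and Epcam) were at or below 8.53 CPM in every library of this age.

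**Figure D2:**
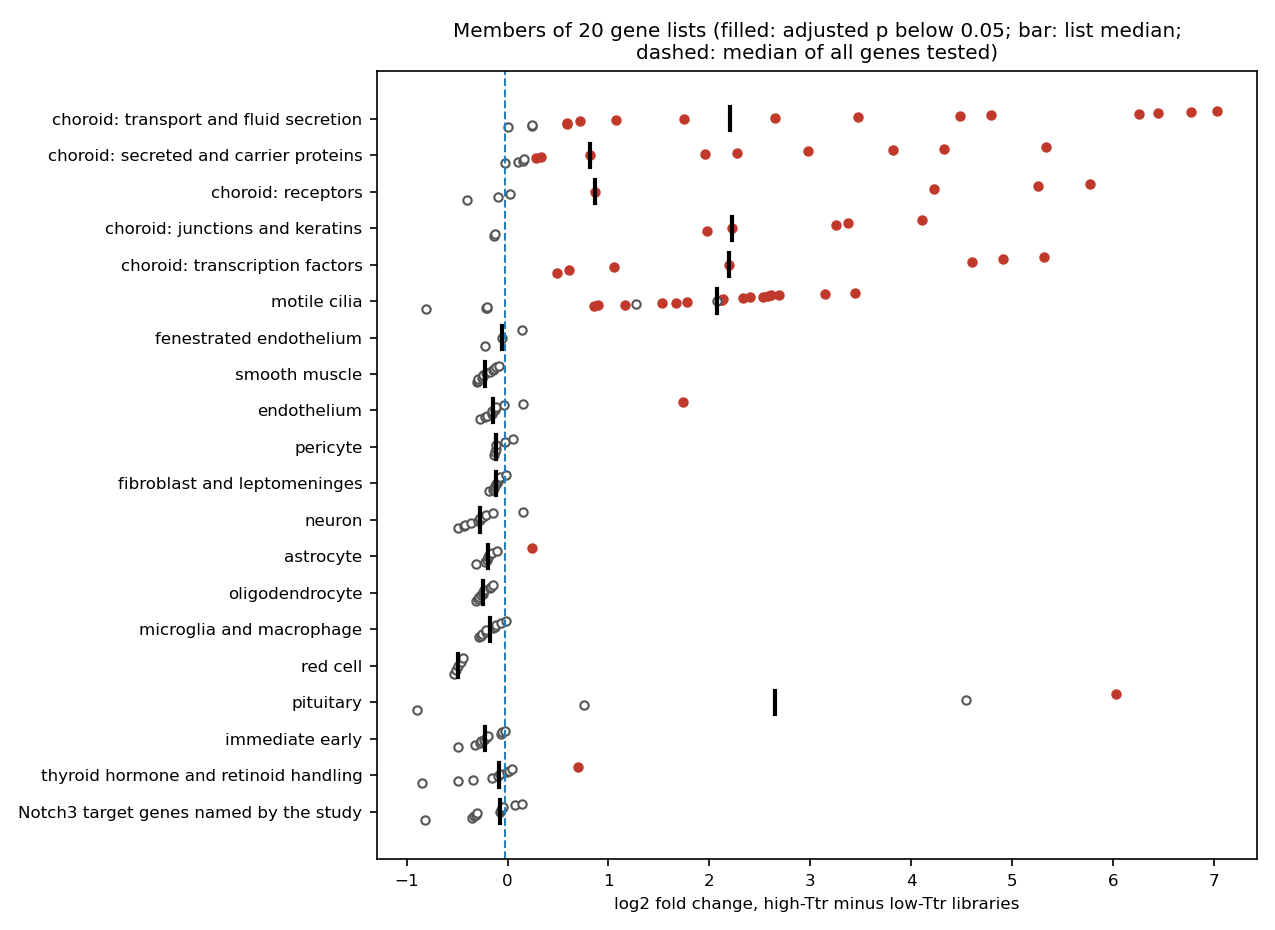
Log2 fold change (high minus low libraries, x axis) of each tested member of 20 gene lists (rows). Filled points are DEGs, open points are not, black bars are list medians, and the dashed line marks the median of all genes at −0.02; the 5 choroid lists and motile cilia extend to the right, and 13 of the other 14 lists have medians below the dashed line.

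Promoter letters are shown as background for 3 of these genes, each of which holds a match to letters read by OTX or RFX proteins. Otx2, Foxj1, Rfx2, and Rfx3 were themselves DEGs, and whether they act on these genes was not tested. Sequences are the 250 bases before the start, 5′ to 3′ on the strand of the gene, from RefSeq on GRCm38.p6, a different build from the mm39 of the counts. Capitals mark TAATCC or its reverse complement, the core recognized by OTX proteins, in Mfrp (chr9:44101520-44101769, plus strand) and in 1 of 4 starts of Otx2 (chr14:48665110-48665359, minus strand). In Tekt1 (chr11:72361883-72362132, minus strand, 1 of 2 starts) they mark GTTGCCA, the half-site read by RFX factors.

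Mfrp: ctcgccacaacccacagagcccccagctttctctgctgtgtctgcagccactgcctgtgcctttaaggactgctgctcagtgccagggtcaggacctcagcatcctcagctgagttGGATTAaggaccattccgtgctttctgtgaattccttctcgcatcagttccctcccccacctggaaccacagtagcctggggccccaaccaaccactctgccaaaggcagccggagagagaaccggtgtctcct
Otx2: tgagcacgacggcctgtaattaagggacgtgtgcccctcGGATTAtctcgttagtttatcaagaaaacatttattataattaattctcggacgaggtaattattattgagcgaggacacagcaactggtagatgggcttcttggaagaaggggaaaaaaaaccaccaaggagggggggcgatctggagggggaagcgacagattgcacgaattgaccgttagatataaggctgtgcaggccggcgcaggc
Tekt1: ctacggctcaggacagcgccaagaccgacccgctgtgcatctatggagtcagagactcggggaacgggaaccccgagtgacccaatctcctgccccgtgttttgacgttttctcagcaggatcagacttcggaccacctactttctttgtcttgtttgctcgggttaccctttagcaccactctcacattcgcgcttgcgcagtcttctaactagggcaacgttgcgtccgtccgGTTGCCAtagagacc

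The OTX letters were found in 3 of 42 promoters of choroid DEGs (7.14%), here the listed ones with Mfrp, Steap1, and Oca2 of the 10 largest increases, in 3 of 17 promoters of motile cilia DEGs (17.6%), and in 6.25% of all 32851 promoters of the table. The RFX letters were found in 1 of 42 choroid promoters (2.38%), in 3 of 17 cilia promoters (17.6%), and in 3.66% of all. The forkhead letters GTAAACA were found in 1 of 42 choroid promoters (2.38%) and in 2 of 17 cilia promoters (11.8%), beside 3.17% of all. Both strands were searched and the 3 motifs do not overlap in letters. Entries were found for 33 of these 41 choroid DEGs and 14 of 17 cilia DEGs. A match is a run of letters and not a bound site.

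Within the 6 high libraries, choroid genes were also expressed relative to Ttr, which is a description since Ttr defined the sets. Ttr varied 2.99-fold among them. For the 16 choroid DEGs and top genes whose mean in low libraries was under 5% of that in high libraries, a limit chosen after the values were seen, reads per 1000 Ttr reads of the same library varied less than CPM in 16 of 16 cases. The median coefficient of variation was 12.9% for the ratio and 43.5% for CPM. Folr1 held the closest proportion, 6.08 to 6.68 reads per 1000 Ttr reads, a coefficient of variation of 3.71% against 41.9% for its CPM. Enpp2 gave 417 to 595 and Otx2 4.25 to 5.88 reads per 1000 Ttr reads. The loosest of the 16 genes had a coefficient of variation of 22.7%. Of the 25 other choroid DEGs, 15 varied less as a ratio and 10 varied more. The latter all averaged over 50% of their high level in the low libraries, among them Clu (25.0% as a ratio, 14.2% as CPM), Igfbp2 (28.7% and 13.7%), Msx1 (26.4% and 18.8%), and Ace (22.8% and 17.3%).

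**Figure D3:**
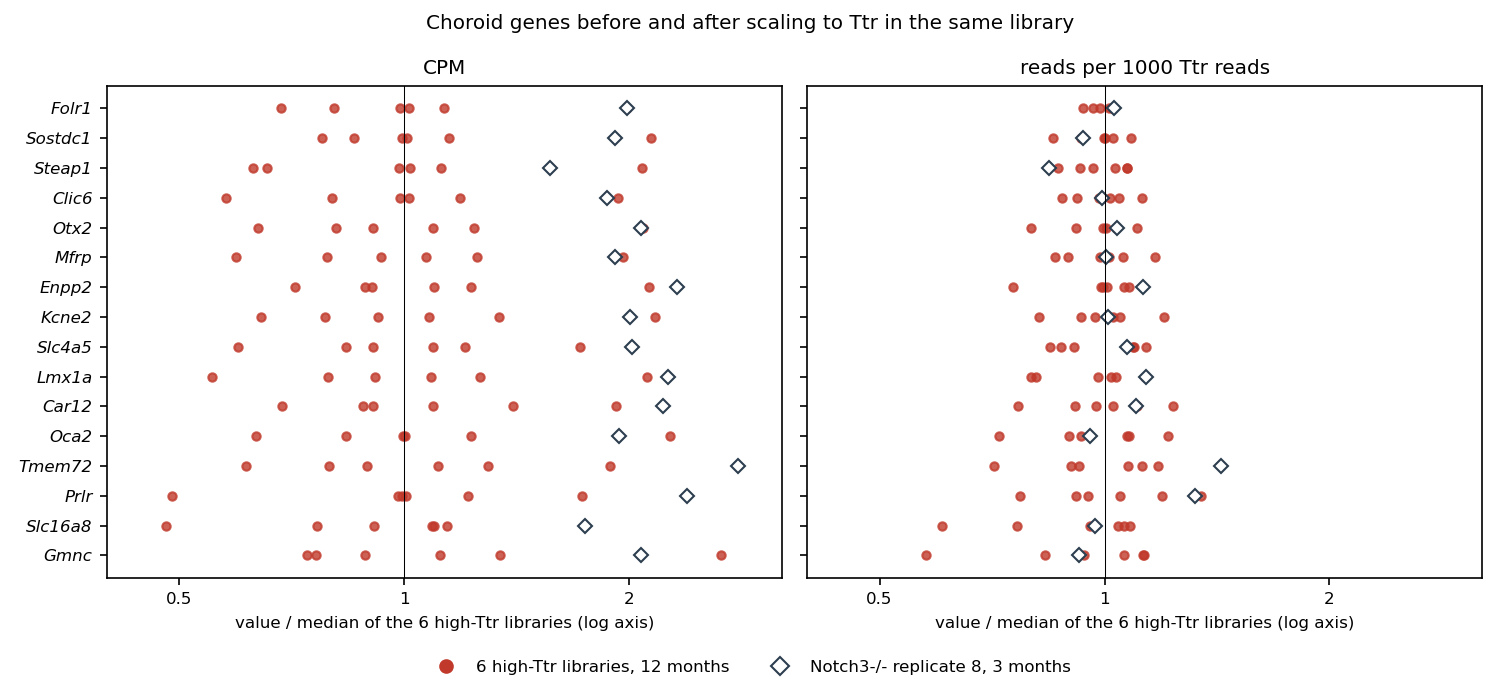
Values of 16 genes (rows) in the 6 high libraries (circles) and in Notch3-/- replicate 8 (diamonds), each divided by the median of the 6 circles, on a log axis. CPM (left) spreads with the Ttr level, while reads per 1000 Ttr reads (right) draw together, with median coefficients of variation of 43.5% and 12.9%.

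By Spearman's rank correlation with Ttr over the 16 libraries, among 11108 other genes with a mean of at least 10 CPM, the most alike were Kcne2 and Slc4a5 (rho = 0.979 for both), Sostdc1 (0.962), Mfrp (0.959), Elovl7 and Cox6a1 (0.953 for both), Kcnk1 (0.944), Pcolce2 and Dyrk2 (0.941 for both), and Tmem72 (0.935). The points share library, depth, and composition, so these are descriptions. Elovl7, a fatty acid elongase, and Cox6a1, a subunit of cytochrome c oxidase, differed greatly in size, with log2 fold changes of 1.81 ± 0.16 and 0.19 ± 0.04.

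Genes of the vessel wall differed by much less, and mostly in the other direction. Of 40 genes of smooth muscle, endothelium, pericytes, and fibroblasts, 1 was a DEG (2.5%), beside 6.38% of all genes. Log2 fold changes were below 0 for 37 of the 40, beside 10113 of all 17730 genes. All 12 smooth muscle genes were uncalled, but all 12 had negative log2 fold changes, with a median of −0.23. Synpo2 came nearest to a call, at −0.29 ± 0.09 (adjusted p = 0.0551). The summed level of the 12 ranged from 1526 to 2545 CPM in the high and from 1978 to 2608 CPM in the low libraries. Acta2, smooth muscle actin, stood at 395 ± 89.9 CPM (SD, n = 6) and 437 ± 54.5 CPM (SD, n = 10), with a log2 fold change of −0.24 ± 0.10 (adjusted p = 0.205). The exception was Slco1c1, a thyroid hormone and organic anion transporter placed among endothelial genes but present in choroid epithelium as well. It rose from 44.4 ± 5.32 to 154 ± 65.1 CPM (log2 fold change 1.74 ± 0.18; adjusted p = 6.02e-06), and the sets did not overlap. Plvap, Esm1, and Pgf, listed for fenestrated endothelium, were not called and had a median of −0.05; Plvap ranged from 5.40 to 15.5 CPM in the high and from 3.02 to 58.8 CPM in the low libraries.

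Genes of neural and immune cells were, with 1 exception, not called. Of 39 genes of neurons, astrocytes, oligodendrocytes, and microglia or macrophages, 1 was a DEG (2.56%), beside 6.38% of all genes. The median log2 fold change of the 39 was −0.23, and 37 were negative, beside 10113 of all 17730 genes. Summed over the 11 neuronal genes, levels ranged from 348 to 1477 CPM in the high and from 552 to 1261 CPM in the low libraries. The DEG was Aldh1l1, a folate enzyme of astrocytes, at a log2 fold change of 0.25 ± 0.07 (adjusted p = 0.041), and it lost the call in 11 of 16 fits without 1 library. The other 7 astrocyte genes were below 0. The 5 red cell genes had a median of −0.49, and the 10 immediate early genes a median of −0.22, with 0 DEGs in each list.

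The pituitary hormone genes Prl and Gh stood apart in 2 libraries. Prl, encoding prolactin, reached 452 CPM in WT replicate 5 and 465 CPM in WT replicate 6, both high-Ttr libraries, and was at or below 3.64 CPM in the other 14 libraries. Its log2 fold change of 6.03 ± 1.59 was called (adjusted p = 0.0293), and without these 2 libraries it was 1.42 with an adjusted p of 0.512. Gh, growth hormone, was at 223 and 81.3 CPM in the same 2 libraries and was not called. Pomc and Cga were also uncalled, with log2 fold changes of 0.76 and −0.90. Cga reached 80.3 CPM among the low libraries and at most 33.9 CPM among the high libraries. Of 6 pituitary genes, 4 were tested, and their summed level ranged from 4.50 to 778 CPM in the high and from 1.55 to 93.7 CPM in the low libraries. Without both libraries 950 DEGs were found between the sets, and the part of pituitary RNA in them was not tested further.

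Of 10 genes that handle thyroid hormone and retinoids, the cargo of transthyretin, 9 were not called. Rbp4, the retinol-binding protein that travels with transthyretin, averaged a log2 difference of 0.00 ± 0.18, and Stra6, its receptor, 0.02 ± 0.18. The 41 lower DEGs were mostly small changes, of which 3 reached 2-fold. These 3, Npas1, 1700063D05Rik, and Mrgprb1, lay near the floor, with means of 0.640, 0.651, and 0.741 CPM in the low libraries. Their means in the high libraries were 0.198, 0.291, and 0.308 CPM. Npas1, a neuronal transcription factor, fell by 1.62 ± 0.40 on the log2 scale, and Kcnab1, a potassium channel subunit, and Cd200, an immune-inhibitory surface protein, fell by 0.48 and 0.26; these names were chosen after their values were seen, since no lower DEG met the rule of non-overlapping sets.

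The high-low difference was then examined within each genotype. Within WT mice (4 against 4 libraries) there were 343 DEGs and within TgNotch3R169C mice (2 against 6) there were 306. Of the genes tested in both, 325 and 295 were higher DEGs, and 196 were shared, which is 60.3% of the former and 66.4% of the latter. Of the 38 choroid DEGs, 31 were tested in both genotypes. Kcne2, Tmem72, Slc16a8, Gmnc, Lmx1a, Krt8, and Cldn3 were not, because each genotype was filtered separately. For these 31, the log2 fold changes differed by a median of 0.23 and by at most 0.85. In WT and TgNotch3R169C mice, respectively, the log2 fold change of Folr1 was 5.92 and 5.63, that of Enpp2 4.29 and 4.38, that of Otx2 4.76 and 4.42, and that of Cldn2 4.12 and 4.11. The difference exceeded 0.5 for 4 genes, namely Krt18 (3.76 and 2.91), Sostdc1 (5.01 and 5.73), Ecrg4 (2.21 and 1.62), and Foxj1 (2.45 and 1.86). The test of the difference between genotypes called 0 of 17730 genes by edgeR, with 972 at an unadjusted p below 0.05, and 3 genes by DESeq2.

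The 3-month mice served as libraries that the rule had not used. Only Notch3-/- replicate 8 exceeded the threshold there, with 22059 Ttr CPM. The other 15 ranged from 13.9 to 318 CPM, so the design allows no test of this library. Of the 1039 higher DEGs that were also tested at 3 months, 968 (93.2%) were higher in Notch3-/- replicate 8 than in each of the other 15 libraries, beside 13.0% of all 17428 genes. All 34 called choroid genes tested at both ages did so, as did 19 of 22 motile cilia genes and 1 of the 12 choroid genes not called at 12 months. Of 40 lower DEGs, 0 were above and 9 (22.5%) were below the other 15 libraries, beside 12.2% of all genes. Folr1 was at 150 CPM in that library and between 0.0689 and 10.3 CPM in the others, and Enpp2 at 13919 CPM against 244 to 389 CPM. Slc13a4 was at 966 CPM, within the range of 905 to 1349 CPM of the others. Of the 16 genes scaled to Ttr, 11 had a ratio within the range of the 6 high libraries, 4 were above, and 1 was below. Folr1, at 6.69 reads per 1000 Ttr reads, lay just above.

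**Figure D4:**
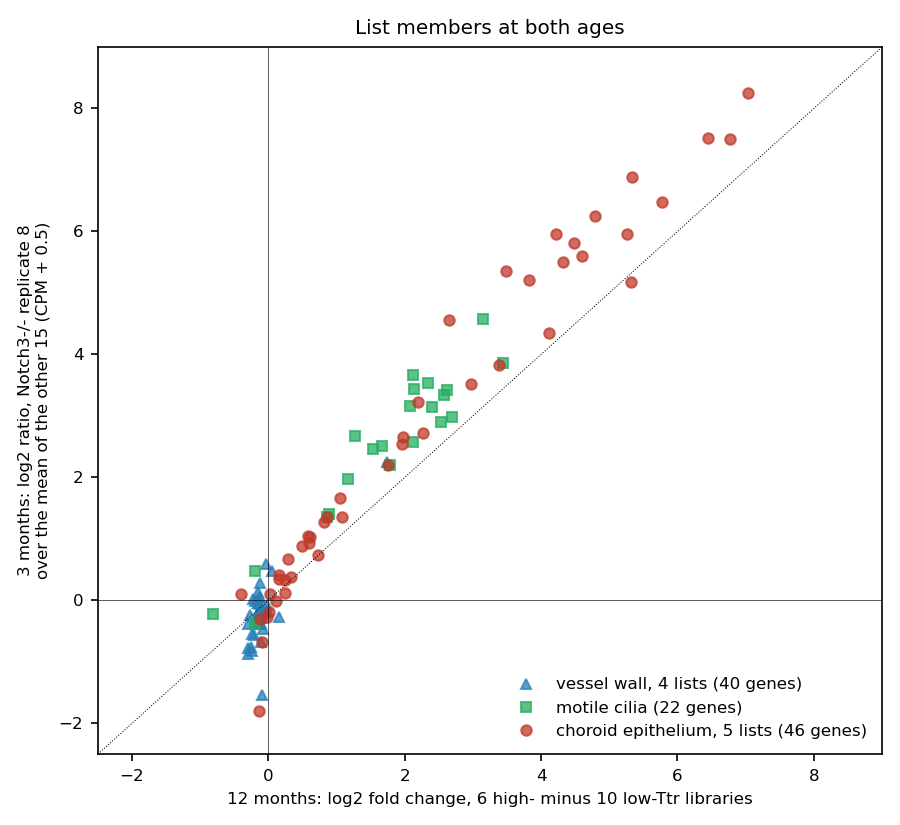
Members of the choroid, cilia, and vessel wall lists by their log2 fold change at 12 months (x axis) and the log2 ratio of Notch3-/- replicate 8 to the mean of the other 15 libraries at 3 months (y axis, CPM + 0.5). Choroid and cilia genes that were high at 12 months were high in this library too, and most points lie above the dotted line of equal values; Ttr was at 22059 CPM in this library.

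A slope on log2(Ttr CPM + 1) replaced the division at 3 months, because 1 library cannot form a set. It called 1078 genes (6.09% of those tested), of which 940 rose with Ttr. Without Notch3-/- replicate 8 it called 81 genes, so the count rested on that library. Of the 80 rising genes left that were tested at both ages, 20 (25.0%) were among the higher DEGs of 12 months, 1.92% of that list, beside 5.96% of all genes tested in both.

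The division was also unequal between the genotypes that the libraries were made to compare, since WT mice held 4 high libraries and TgNotch3R169C mice 2. The 38 choroid DEGs were picked in these same libraries as higher in the high set. Their lower values in TgNotch3R169C mice without the Ttr set, and the shift with it, were therefore largely fixed in advance and are descriptions. Without the Ttr set in the model, 37 of the 38 had a log2 fold change below 0 between TgNotch3R169C and WT mice, beside 9388 of all 17730 genes. The median of the 38 was −0.80, with a median SE of 0.79. With the Ttr set as a covariate, 22 of 38 were below 0, beside 9240 of all genes, with a median of −0.02 and a median SE of 0.24. None was a DEG by genotype in either model, and 1 had an unadjusted p below 0.05 in each. Over all genes the median SE was 0.095 without and 0.093 with the covariate.

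**Figure D5:**
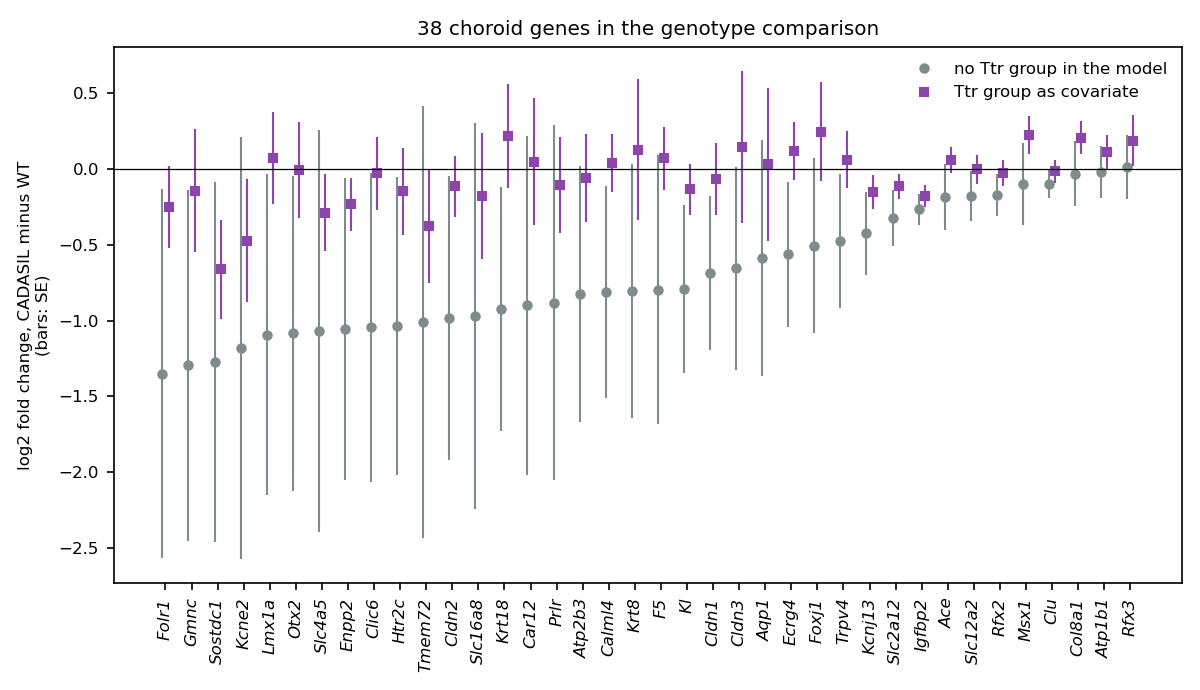
Log2 fold change between TgNotch3R169C (CADASIL) and WT mice for 38 choroid genes, without (circles) and with (squares) the Ttr set in the model, with bars of 1 SE on each side. The medians are −0.80 and −0.02. The genes were picked as higher in the high set, which held more WT libraries, so this shift was largely fixed in advance.

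With the covariate, 18 genes (0.102% of 17730) differed by genotype, 15 higher and 3 lower in TgNotch3R169C mice, and without it 20 genes (0.113%) did. Of these, 16 were shared. Without 1 library 5 to 18 were called, the fewest without WT replicate 1 or 7. Notch3 differed by 1.29 ± 0.12 on the log2 scale (adjusted p = 5.52e-05). Reads of the rat transgene may be counted as mouse Notch3, and the share of each was not tested. Between Ttr sets Notch3 was not called (−0.09 ± 0.12, adjusted p = 0.781). Adamtsl2, an extracellular matrix protein, differed by 1.14 ± 0.10 and Dio2, the deiodinase that activates thyroxine, by 0.95 ± 0.12. Gm30232, at 4.34 ± 0.33, is uncertain, because 109 of the 1902 words of 31 bases in its GENCODE vM21 transcripts also occur in those of Notch3 and reads could be shared. These 4 genes were called in 16 of 16 fits that left out 1 library. Sqle and Nsdhl, enzymes of cholesterol synthesis, differed by 0.43 and 0.25, and Eln, elastin, Cdh13, a cadherin of the vessel wall, and Ntn4, a netrin, by 0.54, 0.38, and 0.31.

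Called only with the covariate were Nsdhl (adjusted p = 0.0384 with and 0.119 without it) and Sod3 (0.0481 and 0.237). Sod3, the extracellular superoxide dismutase, was higher in high-Ttr libraries by 0.31 ± 0.05 (adjusted p = 0.000439) and lower in TgNotch3R169C mice by −0.26 ± 0.05. Called only without it were Chp2, Acaca, Srebf2, and Msmo1, with adjusted p-values of 0.051 to 0.0666 once the covariate was added. Nsdhl, Sod3, and Eln kept the call in 5, 2, and 5 of the 16 fits without 1 library. Among the 10 low libraries alone (6 TgNotch3R169C against 4 WT), Gm30232 and Adamtsl2 were called (0.0111% of 18096 genes) by edgeR and 135 genes by DESeq2. Notch3 differed there by 1.21 ± 0.17 with an adjusted p of 0.0902. Of the 11 Notch3 target genes that the study names, 0 were called between Ttr sets and 0 by genotype in these edgeR fits. By genotype, 5 of the 11 had an unadjusted p below 0.05 with the covariate, beside 5.91% of all genes. These 5 were all lower in TgNotch3R169C mice: Susd5 (−0.42), Xirp1 (−0.43), Pln (−0.37), Tbx2 (−0.31), and Sorbs2 (−0.18). Of all 11, 7 had log2 fold changes below 0.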

How the data were processed

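The deposited table holds unnormalized counts, the whole reads that the authors assigned to each of 55357 Ensembl genes in 32 libraries. The submitters' notes name cutadapt 1.10, Bowtie2 2.2.8, STAR 2.5.3a, HTSeq 0.6.1p1, and mm39, without roles; whether counting used strand is not given in the sources used here. Symbols were matched by Ensembl identifier (52081 of 55357 genes). The members and the gene lists were chosen with earlier results of these data known.

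Libraries were divided at 1000 Ttr CPM of raw counts. Genes passing filterByExpr by genotype, which does not look at the division, were normalized by TMM and tested by the edgeR 4.0.16 quasi-likelihood test (R 4.3.3), with Benjamini-Hochberg adjustment over all genes tested and calls below 0.05. Ttr was left out, and the results of a few genes are not reported here. The fits were tested on simulated counts. Genes named are the 10 largest increases with non-overlapping sets (no decrease met this), the choroid lists and the 3 most abundant members of each other list, the 10 smallest genotype p-values, Notch3, Ttr, and the 10 genes most like Ttr in rank; others, among them Slco1c1, Aldh1l1, Sod3, single cilia genes, and the lower DEGs, were chosen after their values were seen. Replicates are separate mice. No 2 libraries of the same genotype and age agreed within counting noise, and pairs across these groups were not compared. Alternatives included DESeq2 1.42.0, RLE, other filters, thresholds of 500 and 2000 CPM, and leaving out each library. Depth limits low genes: in WT replicate 3, 92 reads stood behind Kcne2 and 10 behind Lmx1a.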

Additional observations from a re-analysis of the deposited data

Results flagged for a closer look

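Summed CPM of each list, Notch3, and total counts were examined for a single library far from the rest of its set, in 44 groups of libraries, and 5 stood out where chance alone gives about 2.2. WT replicate 4, the library with the most Ttr, was highest of the 6 high libraries for secreted and carrier proteins (19965 CPM, next 12309 CPM; gap of 0.689 of the range) and for junctions and keratins (520 CPM, next 423 CPM; 0.639). TgNotch3R169C replicate 5 was lowest of the high libraries for the 12 endothelial genes (1748 CPM, next 1904 CPM; 0.731). Among the 10 low libraries, TgNotch3R169C replicate 7 was highest for the 3 genes of fenestrated endothelium (96.9 CPM, next 54.2 CPM; 0.722), and TgNotch3R169C replicate 1 for immediate early genes (724 CPM, next 435 CPM; 0.638). At 3 months, outside the comparison that defined the sets, Ttr stood at 22059 CPM in Notch3-/- replicate 8, above the 13.9 to 318 CPM of the other 15 libraries.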

How the results depend on the processing

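The count of 1132 DEGs between Ttr sets was 922 to 1233 when 1 library was left out, 1128 with RLE, 1155 without a filter, 1292 with a filter by the full design, 1362 with DESeq2, 1146 with choroid genes out of the library totals, 1085 as a slope on log2 Ttr CPM, and the same at thresholds of 500 and 2000 CPM. It fell to 343 within WT and 306 within TgNotch3R169C libraries, which hold fewer samples and were filtered separately, with 16050 genes tested in both. Of 50 choroid genes, 36 to 38 were called with 1 library left out. Within WT libraries 26 were called and within TgNotch3R169C libraries 24, but not all 50 were tested in both genotypes. The replicate numbers do not pair the mice (3 of 8 correlations of same-numbered libraries were over 0.1, and 2 of 8 TgNotch3R169C libraries correlated best with their own number). With the replicate number as a block, 319 DEGs, 32 choroid genes (31 higher, 1 lower), 3 genotype calls, 0 genotype calls among low libraries, and 308 calls of the 3-month slope were found. The 18 genotype calls with the Ttr covariate became 11 without a filter, 63 with DESeq2, 7 with the slope as covariate, and 5 to 18 without 1 library (9 or fewer without TgNotch3R169C replicate 1, 2, 3, or 7 or WT replicate 1, 2, 3, 4, 7, or 8). The 2 genotype calls among low libraries became 4 without a filter, 135 with DESeq2, and 0 to 3 without 1 library (0 without TgNotch3R169C replicate 1, 2, or 7 or WT replicate 1, 3, or 7, and 1 without TgNotch3R169C replicate 4 or 6), and the 0 interaction calls became 3 with DESeq2 and stayed 0 without any 1 library. The 3-month slope called 81 to 1157 genes without 1 library, the lowest without Notch3-/- replicate 8. The causes of these differences were not tested. The Ttr difference between genotypes ranged from −3.36 to −1.87 on the log2 scale without 1 library. Of 722 refits of named genes, 659 kept the direction and the call, 63 kept the direction and lost the call, and 0 changed direction. These refits do not take in all of the fits without 1 library. In those, Sod3 lost the genotype call in 14 of 16 and Clu the call between Ttr sets in 11 of 16, while Notch3 kept the genotype call and Folr1 the call between Ttr sets in 16 of 16.

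Added after seeing the data, the fit without both high-Prl libraries gave 950 DEGs and 13 genotype calls, and the fit with Xist as a covariate 1163 and 22. The slope could give no value among low libraries alone, and thresholds could give none at 3 months.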

Other observations

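Genes with symbols of the respiratory chain and ATP synthase, grouped by symbol after the values were seen, were mostly higher in the high-Ttr libraries by small amounts. Grouping by symbol does not make each a subunit: the complex I group holds Ndufa4l2 (−0.02), a member of the pericyte list. Of 80 such genes tested, 28 were higher DEGs between Ttr sets and 0 were lower, beside 6.15% of all genes, and their median log2 fold change was 0.18. Complex III stood out by count, with 8 of 9 genes called and log2 fold changes from 0.18 to 0.29. Complex I had 8 of 38 called, complex IV 5 of 16, and ATP synthase 7 of 17, with medians of 0.15, 0.16, and 0.19. Single members departed from these: Cox8b, a muscle-type subunit of complex IV, differed by 3.09 ± 0.26 (SE) from a low level of 0.357 CPM, Atp5g1 by 0.94 ± 0.17, and the lowest were Atp5g2 at −0.17 and Cox4i2 at −0.12, neither called.

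WT replicate 3 and, at 3 months, Notch3+/+ replicate 5 held the most Ttr below the threshold, at 334 and 318 CPM. WT replicate 3 was the highest of the 10 low libraries for 7 of the 16 genes scaled to Ttr, among them Mfrp, Kcne2, Slc4a5, and Enpp2. Notch3+/+ replicate 5 also held the most prolactin of all libraries, with 5781 CPM of Prl and 1197 CPM of Gh.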
